A study of Homo sapiens with 14 samples.

Results

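Besides named human miRNAs, the read table of this series held entries that carry only the name of a genome sequence and a serial number, such as chr8_19924. The entries described here were chosen by their counts: an unnamed entry was kept when it reached a count of 10 or more in at least 2 of the 14 libraries. Of 502 unnamed entries among 2848 entries in all, 123 met this rule. Sets of entries with identical counts in every library were counted once, which left 117 unnamed entries. Because the counts chose the entries, their abundance is a description.

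All libraries came from PANC-1 cells, a human pancreatic ductal carcinoma line kept in medium with fetal bovine serum. Cells had received proanthocyanidins of grape (PA, chains of flavan-3-ol units), 20 µg/ml, for 3, 12 or 24 h, or the solvent DMSO for 0, 3, 12 or 24 h. Each of these 7 groups held 2 libraries, lettered A and B, and all groups shared the one cell line and its medium. A biological replicate is mentioned in the design text, yet no label states that A and B were separate cultures, so p-values measure the spread between these libraries, which may be technical.

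A miRNA is a short RNA cut from a hairpin precursor by Drosha and Dicer and loaded into an Argonaute protein, where its seed pairs with target mRNAs. Names made of a sequence name and a serial number are typical of programs that propose miRNA precursors from stacks of small RNA reads on a genome, such as miRDeep. Candidates of this kind can be real but unannotated miRNAs, or fragments of tRNA, rRNA, snoRNA or other transcripts. Which program made these names was not given in the sources used here, and neither the sequence nor the position of any of the unnamed entries was used here, so no function is given for any of them.

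The libraries held between 1032391 and 3111014 counts (median 2076388). Libraries of 1 group differed by more than sampling noise in every group, with a chi-square per degree of freedom over all entries from 14.3 in DMSO 3 h to 83.4 in DMSO 12 h. The 2 DMSO 12 h libraries differed from the remaining DMSO libraries in named and unnamed entries alike. They lay outside the range of the other 6 DMSO libraries, both on the same side, in 25.4% of the 810 entries tested. The same held for 27 of the 111 tested unnamed entries (24.3%), 17 above the range and 10 below it. The calls at 12 h are therefore given against the other DMSO times as well. How often the libraries of DMSO 0, 3 or 24 h lay outside the range of the rest was not computed. The summed CPM of 3 acinar marker miRNAs ran from 0.433 to 5.04 over the libraries, and that of the islet marker miR-375 from 1.64 to 8.35, both low. The 4 markers of red blood cells summed to between 296.5 and 591 CPM, highest in DMSO 12 h B. The 4 haematopoietic markers summed to between 1.64 and 6.37 CPM, and 3 markers of liver and muscle to between 0 and 5.575 CPM. The 4 markers of endothelial cells and fibroblasts summed to between 813 and 1532 CPM, lowest in DMSO 12 h (813 and 949).

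A set of identical counts was listed under a chromosome name where it held one. Listed so, all 117 entries carried the name of a reference chromosome, and 23 chromosomes had at least 1. Chromosomes 1 and 11 each had 12, chromosome 12 had 8, and chromosomes 15, 18 and 21 had 1 each. The serial numbers of each sequence name formed a block of their own, with 0 of 41 sequence names interleaved with another. Of the 117 entries, 4 stood for sets of identical counts. The counts of chr4_10821 were those of an entry on the scaffold KI270790.1, those of chr2_6045 were shared with an entry on GL383521.1, and those of chr18_34862 were shared with chr4_11472. The set of chr21_37729 joined 4 entries, 2 on GL000220.1 and 1 on KI270733.1 besides its own. On these 2 scaffolds, the GENCODE annotation lists copies of 5.8S ribosomal RNA genes (RNA5-8SN2 and RNA5-8SN4 on GL000220.1, RNA5-8SN2 on KI270733.1). It also lists RF01518, of type misc_RNA, 2 times on each of them. Whether the set overlaps any of these genes was not tested, since no position was used. The set had a low level in every library, from 13.5 to 35.5 CPM, where CPM is the count scaled to a common library size by TMM. Reads of such sets cannot be told apart between their copies. No unnamed entry that met the rule (0 of 117) had the same counts as a named miRNA.

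The entries differed widely in abundance, and few of them held most of the reads. Total counts over the 14 libraries ran from 48 to 108073, and 52 entries had a total under 200. The 3 largest, chr20_37345, chr6_15149 and chrX_39661, held 42.0% of all counts of the 117 entries, and the 10 largest held 77.7%. A count of 10 or more was reached in all 14 libraries by 41 entries and in exactly 2 libraries by 16. At the threshold itself, 8 entries had 10 as the lower of their 2 highest counts, among them chr18_34862 (10 and 11), chr17_33406 (10 and 14) and chr11_24924 (10 and 28). Just outside it, 5 entries had 9 there, among them chr2_6106 (9 and 19), chr1_927 (9 and 10) and chr1_1807 (9 and 10). Read lengths were not used here, so CPM values are compared between libraries for 1 entry, and levels of different entries are set side by side only as counts.

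Together the 117 entries made up 1.94% of all counts, and from 1.59% to 3.05% of a single library. The 2 highest shares were those of PA 24 h B (3.05%) and DMSO 12 h A (2.98%), and the lowest was that of PA 12 h B (1.59%). A single entry set the PA 24 h libraries apart. The entry chr8_19924 held between 0.131% and 0.529% of the counts of the 117 entries in the 8 DMSO libraries. In PA libraries A and B it held 2.41% and 1.75% after 3 h, 3.92% and 3.92% after 12 h, and 34.1% and 34.0% after 24 h. In whole libraries it reached 0.638% and 1.04% of all counts at PA 24 h. The 10 most abundant entries also held some with little spread over the libraries: chr4_11420 ran from 844 to 1175 CPM and chr3_8772 from 499 to 750.0 CPM.

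**Figure D1:**
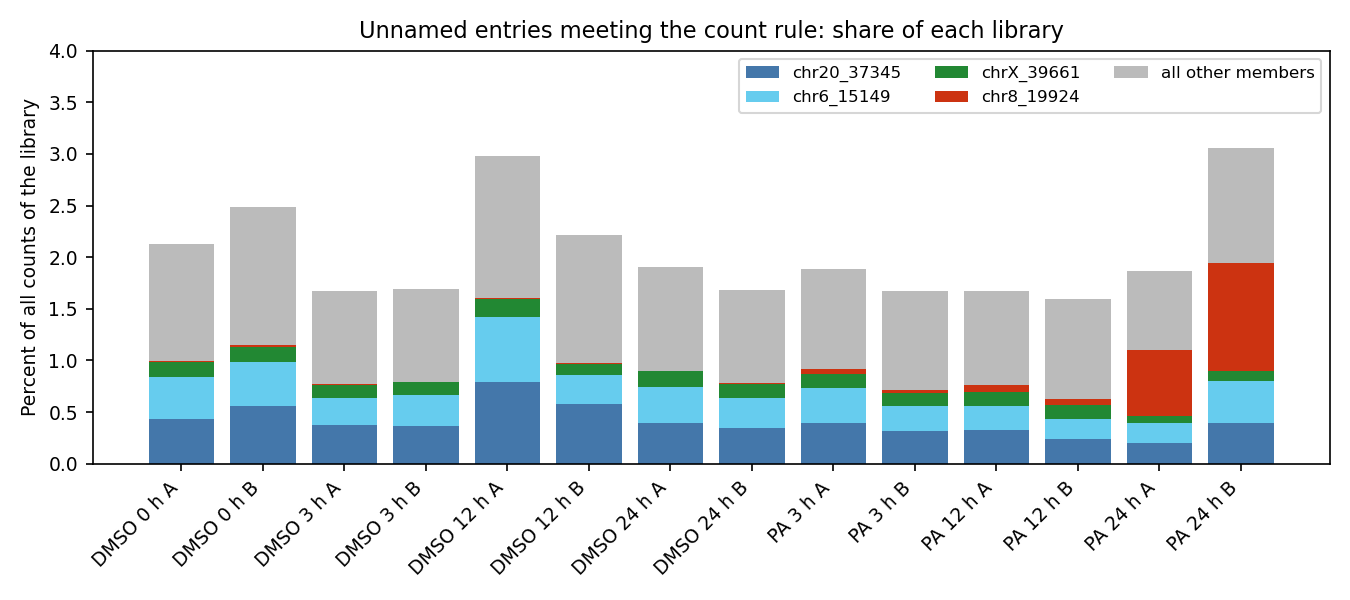
Share of each library, in percent of all its counts, taken by the unnamed entries that met the count rule, with chr20_37345, chr6_15149, chrX_39661 and chr8_19924 drawn in colours and all others in grey. The chr8_19924 segment is thin in every DMSO library and reaches 0.638% and 1.04% of the library in PA 24 h A and B.

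The entry chr8_19924 was higher with PA at every time, and by far the most at 24 h. In the DMSO libraries A and B it had 103 and 122 CPM at 0 h, 87.9 and 33.9 CPM at 3 h, 82.4 and 103 CPM at 12 h, and 25.01 and 21.2 CPM at 24 h. In the PA libraries it had 461 and 309.5 CPM at 3 h, 635 and 629.7 CPM at 12 h, and 7204 and 10810 CPM at 24 h. All 6 PA libraries lay above all 8 DMSO libraries, and the PA 24 h libraries lay more than a factor of 10 above all others. Such a separation of all PA from all DMSO libraries was met by 5 of the 810 entries tested (0.617%): chr8_19924 and the named miR-7704, miR-27a-5p, miR-27b-3p and miR-629-5p. By mean, the groups ran from PA 24 h (9006 CPM ± 2549, SD, n = 2) through PA 12 h (632 ± 3.63) and PA 3 h (385 ± 107) to DMSO 0 h (113 ± 13.4), 12 h (92.6 ± 14.4), 3 h (60.9 ± 38.1) and 24 h (23.1 ± 2.67). The libraries of DMSO 0, 3 and 12 h overlapped or nearly met, while those of the 3 PA groups and of DMSO 24 h did not overlap any neighbour in that order.

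**Figure D2:**
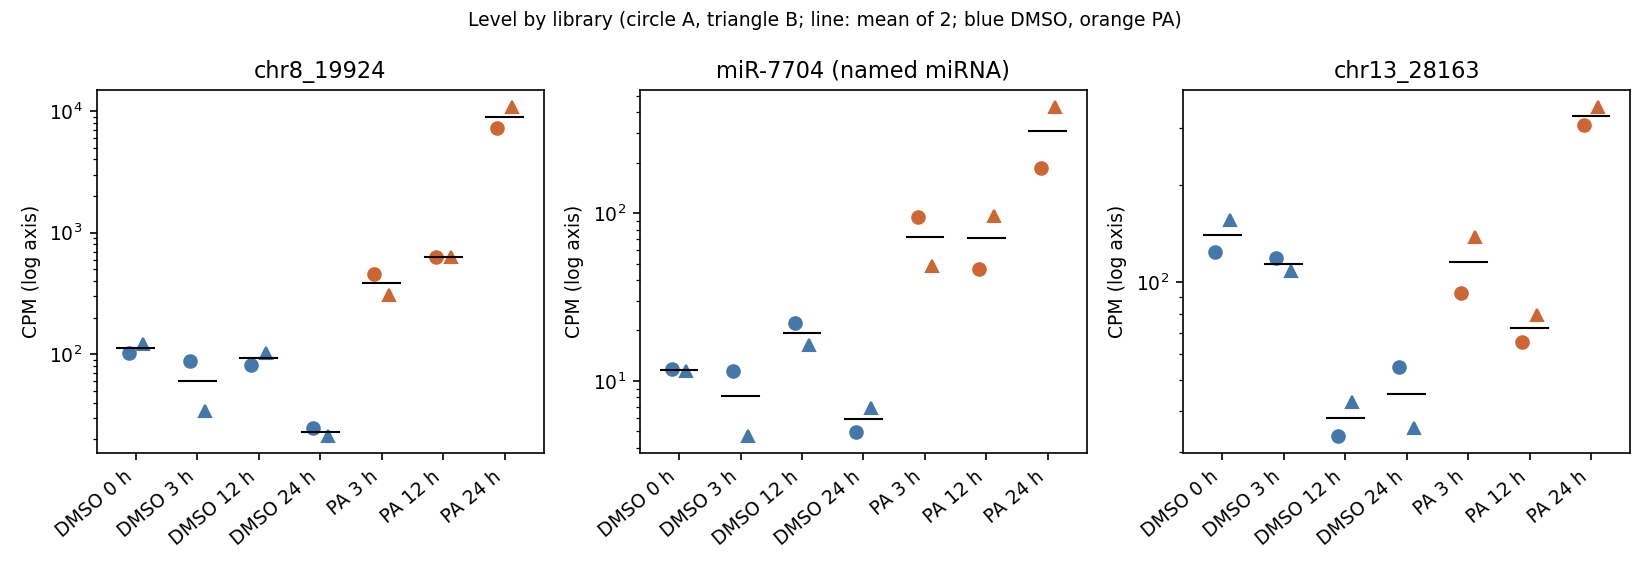
CPM on a log axis in each library by group for chr8_19924, the named miRNA miR-7704 and the unnamed chr13_28163; circles are A, triangles are B, and a line marks the mean of the 2 libraries. The PA libraries of chr8_19924 lie above all DMSO libraries at each time, whereas chr13_28163 has PA 24 h as its highest group (306 and 348 CPM) and DMSO 12 h and 24 h as its lowest.

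Tests ran over the whole table with edgeR's quasi-likelihood F test, and an entry passed at a Benjamini-Hochberg adjusted p under 0.05. A call is read only for unnamed entries that reached the count rule from the 10 libraries outside a comparison, since an entry kept only by the libraries compared was likely to differ between them. For chr8_19924 the log2 fold change of PA over DMSO was 2.63 ± 0.34 (SE) at 3 h, with an edgeR adjusted p of 0.000908. It was 2.78 ± 0.34 at 12 h (adjusted p = 0.00017) and 8.60 ± 0.43 at 24 h (adjusted p = 2.78e-09). The rise at 24 h was larger than that at 3 h by 5.97 ± 0.49 on the log2 scale (adjusted p = 3.12e-06). Part of the size at 24 h belonged to the control, since chr8_19924 was lower in DMSO 24 h than in DMSO 0 h by a log2 fold change of -2.28 ± 0.37. Against the mean of DMSO at 0, 3 and 12 h, the PA 24 h libraries were still higher by 6.70 (adjusted p = 2.63e-11). The call at 3 h rested on the spread shared by all 14 libraries: with only the 4 libraries of 3 h, the fold change was 2.61 and the adjusted p was 0.202.

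Over the whole fitted table, the entry whose level followed chr8_19924 most closely was the named miR-7704, with a Pearson correlation of log2 CPM of 0.958 over the 14 libraries. Next came miR-548au-3p (0.844), miR-1271-5p (0.835), miR-27a-5p (0.833) and miR-3182 (0.813). These are descriptions, since the libraries share treatments, times and scaling. Without the 2 PA 24 h libraries, over 12 libraries, the correlation with miR-7704 was 0.935, while those with the other 4 were 0.522, 0.497, 0.675 and 0.373 in the same order. Reads of miR-548au-3p were few throughout. It had from 0 to 2.465 CPM in those 12 libraries, and 7.22 and 5.04 CPM in PA 24 h A and B.

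The level of miR-7704 was from 4.68 to 22.2 CPM in the 8 DMSO libraries. In PA libraries A and B it was 95.6 and 48.4 CPM at 3 h, 46.4 and 96.0 CPM at 12 h, and 185 and 431 CPM at 24 h. In miR-7704, too, each PA library was above each DMSO library.

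The mature sequences of these 5 named miRNAs, from RefSeq on GRCh38.p14, are shown because no sequence of an unnamed entry was used here and these followed its pattern most closely. Capitals mark the seed, bases 2 to 8. The genes lie at chr2:176188843-176188861 (plus strand, miR-7704), chr9:93594874-93594894 (plus strand, miR-548au-3p), chr5:176367960-176367981 (plus strand, miR-1271-5p), chr19:13836487-13836508 (minus strand, miR-27a-5p) and chr16:83508349-83508365 (plus strand, miR-3182), as positions of the mature RNA.
miR-7704: cGGGGUCGgcggcgacgug
miR-548au-3p: uGGCAGUUacuuuugcaccag
miR-1271-5p: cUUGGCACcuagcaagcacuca
miR-27a-5p: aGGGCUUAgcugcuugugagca
miR-3182: gCUUCUGUaguguaguc
The 5 seeds were all different.

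At 3 h, chr8_19924 was the only unnamed entry that passed. Of 117 entries, 110 reached the count rule without the 3 h libraries, 107 of these were tested, and 1 passed (0.935%), beside 0.247% of all 810 entries. At an unadjusted p under 0.05 there were 6 of the 107, beside 14 of all 810 entries. The median log2 fold change of the 107 was 0.06, against -0.01 over all entries tested. The most abundant entries were close to level: chr20_37345 had 3992 and 3359 CPM with PA and 3903 and 3830 CPM with DMSO, and chrX_39661 had 1378 and 1319 CPM with PA and 1282 and 1315 CPM with DMSO.

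At 24 h, unnamed entries that passed were almost all higher with PA. Of 101 tested entries that reached the rule without the 24 h libraries, 13 passed (12.9%), 12 of them higher and 1 lower. Over all 810 entries, 6.67% passed, 4.32% higher and 2.35% lower. Whether the 2 shares differ was not tested. An unadjusted p under 0.05 was found for 29 of the 101 and for 169 of all 810 entries. The median log2 fold change was 0.25 for the 101 entries and -0.01 for all entries. With total counts in place of TMM scaling, the median of all entries moved to -0.19. Beside these rises, the summed CPM of 12 named entries that overlap tRNA, rRNA, U2 or snoRNA, a sign of RNA fragments, was 8872 and 10880 in PA 24 h A and B and 8626 and 6957 in DMSO 24 h. That of the 4 red blood cell markers was 554 and 503 in PA 24 h and 380.1 and 397 in DMSO 24 h. The part of either in the result was not tested.

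The rises after chr8_19924 were smaller, and several began from a low DMSO 24 h level. The entry chr13_28163 had 306 and 348 CPM in PA 24 h and 54.9 and 35.5 CPM in DMSO 24 h. In the other DMSO libraries A and B it had 125 and 156 CPM at 0 h, 119 and 109 CPM at 3 h, and 33.6 and 42.7 CPM at 12 h. The 2 PA 24 h libraries stood above all 12 others, and the DMSO 12 h and 24 h libraries stood below the DMSO 0 h and 3 h libraries. Its log2 fold change at 24 h was 2.85 ± 0.26 (edgeR adjusted p = 4.07e-06), and 1.95 against the other DMSO times (adjusted p = 4.67e-06). The PA effect was larger at 24 h than at 3 h by 2.83 ± 0.35 (adjusted p = 0.000252).

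The entry chr12_26635 had 34.1 and 26.9 CPM in PA 24 h, against 7.38 and 3.47 CPM in DMSO 24 h and 21.7 and 17.3 CPM in DMSO 0 h. Its PA 24 h libraries lay above all DMSO libraries, with a log2 fold change of 2.48 ± 0.41 (adjusted p = 0.00193). It followed chr13_28163 over the libraries, with a Pearson correlation of 0.915 over 14 libraries and 0.887 over the 12 without DMSO 12 h. For chr14_29090 the levels were 26.1 and 29.4 CPM in PA 24 h and from 0.909 to 11.5 CPM in the 8 DMSO libraries, a fold change of 2.69 ± 0.53 (adjusted p = 0.00618). For chr6_15979 they were 15.6 and 42.9 CPM in PA 24 h and from 0 to 13.1 CPM in the DMSO libraries. Its fitted fold change of 4.96 ± 0.96 (adjusted p = 0.00618) rested on counts of 0 and 4 in DMSO 24 h, and was 2.07 against the other DMSO times (adjusted p = 0.0315). Without DMSO 24 h A, neither entry passed (adjusted p = 0.101 for chr14_29090 and 0.0687 for chr6_15979).

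For chr7_18306 the PA 24 h libraries had 18.0 and 31.9 CPM and the DMSO libraries from 4.55 to 9.86 CPM, with a fold change of 1.85 ± 0.41 (adjusted p = 0.0131). For chr1_339 they had 24.5 and 42.0 CPM beside 8.20 and 2.60 CPM in DMSO 24 h and 21.7 and 18.9 CPM in DMSO 0 h, with a fold change of 2.57 ± 0.54 (adjusted p = 0.00917). For chr19_35739 they had 68.2 and 90.8 CPM and the DMSO libraries from 21.8 to 49.1 CPM, with a fold change of 1.26 ± 0.31 (adjusted p = 0.0203). In these 3 entries, too, the PA 24 h libraries were above every DMSO library. Each lost its call when 1 of the 24 h libraries was left out: for chr1_339 the adjusted p was 0.0978 without library B of DMSO 24 h and 0.0524 without library B of PA 24 h. For chr7_18306 it was 0.122 and 0.095 without the one or the other DMSO 24 h library, and 0.13 without library B of PA 24 h. For chr19_35739 it was 0.0687, 0.226 and 0.112 in the same order.

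The other 4 rises did not place PA 24 h above the remaining DMSO libraries. The entry chr1_2271 had 55.7 and 42.9 CPM in PA 24 h, 9.84 and 6.50 CPM in DMSO 24 h, and 36.6 and 62.4 CPM in DMSO 0 h, so PA 24 h overlapped DMSO 0 h. Its fold change was 2.59 ± 0.36 against DMSO 24 h (adjusted p = 0.000448) and 0.63 against the other DMSO times (adjusted p = 0.16). The entry chr16_32004 had 17.6 and 37.8 CPM in PA 24 h, 3.69 and 6.93 CPM in DMSO 24 h, and from 22.9 to 33.5 CPM in the other DMSO libraries. Its fold change was 2.32 ± 0.43 against DMSO 24 h (adjusted p = 0.00425) and turned to -0.09 against the other DMSO times (adjusted p = 0.917). Here the DMSO 24 h libraries were the ones that stood apart.

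The entry chr4_10821, with its identical copy on KI270790.1, had 343 and 627 CPM in PA 24 h, 206 and 164 CPM in DMSO 24 h, and from 384 to 688 CPM in the other DMSO libraries. Its fold change of 1.38 ± 0.26 (adjusted p = 0.00483) became 0.01 against the other DMSO times (adjusted p = 0.987). The entry chr17_33942 had 38.1 and 31.1 CPM in PA 24 h and 6.15 and 3.03 CPM in DMSO 24 h. In the other DMSO libraries A and B it had 10.5 and 27.1 CPM at 0 h, 23.7 and 10.5 CPM at 3 h, and 58.0 and 141 CPM at 12 h. PA 24 h was thus above the DMSO 0, 3 and 24 h libraries and below those of DMSO 12 h. Its fold change was 2.90 ± 0.64 against DMSO 24 h (adjusted p = 0.0129). Against the other DMSO times, with the high DMSO 12 h among them, it was 0.14 (adjusted p = 0.898). Leaving out either DMSO 24 h or either PA 24 h library also ended its call, with adjusted p-values between 0.0522 and 0.151. Without DMSO 24 h A the adjusted p of chr16_32004 was 0.0687, and without DMSO 24 h B that of chr4_10821 was 0.0515.

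In all 12 entries that rose at 24 h, DMSO 24 h had a lower mean CPM than DMSO 0 h. The DMSO 24 h libraries enter both comparisons, so a low DMSO 24 h level favours a call. The same was true of 32 of the 35 entries of the whole table that were higher with PA at 24 h, of 74 of the 111 tested unnamed entries (66.7%) and of 404 of all 810 entries (49.9%). For 8 of the 12, both PA 24 h libraries lay above all 8 DMSO libraries, a pattern seen in 15 of the 111 unnamed entries (13.5%) and in 7.53% of all entries.

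**Figure D3:**
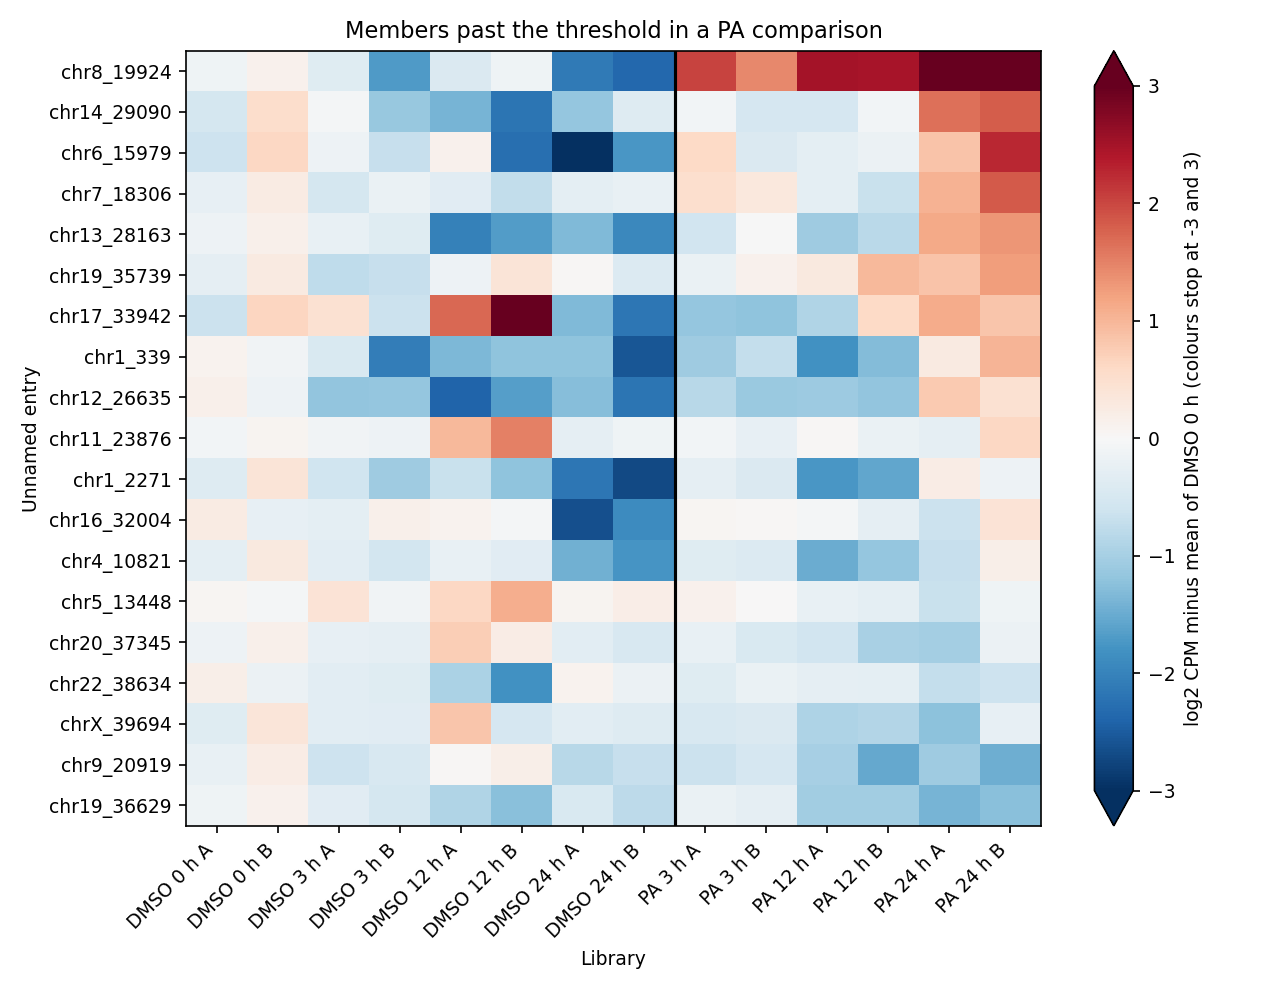
Log2 CPM minus the mean of DMSO 0 h, in each of the 14 libraries, for the 19 unnamed entries that passed in a comparison of PA with DMSO; red is above and blue is below DMSO 0 h, and colours stop at -3 and 3. The row of chr8_19924 is red in every PA library, while the row of chr16_32004 is darkest blue at DMSO 24 h and that of chr4_10821 is blue at DMSO 24 h and at PA 12 h.

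The fall at 24 h was that of chr19_36629, 1 of the 10 most abundant entries, with 646 and 714 CPM in PA 24 h and 1241 and 998 CPM in DMSO 24 h. In the other DMSO libraries it ran from 716 CPM in DMSO 12 h B to 1881 CPM in DMSO 0 h B, so PA 24 h was below all of them. Its log2 fold change was -0.72 ± 0.18 against DMSO 24 h (edgeR adjusted p = 0.0206) and -0.83 against the other DMSO times (adjusted p = 0.00268). The call was lost without DMSO 3 h B (adjusted p = 0.0533), without either DMSO 24 h library (0.236 without A and 0.0515 without B) and without either PA 24 h library (0.0925 without A and 0.0624 without B).

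At 12 h, 3 unnamed entries passed as higher and 7 as lower with PA, but several of these calls came with DMSO 12 h libraries that stood apart. For chr11_23876, chr17_33942, chr20_37345, chr5_13448 and chr22_38634, both DMSO 12 h libraries lay outside the range of the other DMSO libraries. This was not so for the rest. Of 100 tested entries that reached the rule without the 12 h libraries, 10 passed (10.0%), beside 11.1% of all entries, of which 6.3% were higher and 4.81% lower. The share was thus near the background. At an unadjusted p under 0.05 there were 24 of the 100, beside 213 of all 810 entries. The median log2 fold change was -0.21 for the 100, against -0.06 over all entries. Against the mean of DMSO at 0, 3 and 24 h, 3 entries passed: chr8_19924 (3.53, adjusted p = 1.75e-07), and chr12_27013 and chr19_36629, which had not passed against DMSO 12 h. The summed CPM of the 12 named fragment-like entries was 5913 and 3460 in DMSO 12 h A and B and 6696 and 11310 in PA 12 h. The 4 red blood cell markers summed to 539.6 and 591 in DMSO 12 h and 406 and 503 in PA 12 h, and the 4 markers of endothelial cells and fibroblasts to 813 and 949 and to 1303 and 1051. The part of these in the differences was not tested.

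The largest of the falls in counts were those of chr20_37345 and chr11_23876. The entry chr20_37345, the most abundant of all 117, had 3119 and 2371 CPM in PA 12 h and 7717 and 5395 CPM in DMSO 12 h, while the other 6 DMSO libraries ran from 3324 to 5163 CPM. DMSO 12 h was thus above every other DMSO library, and PA 12 h below every one. Its log2 fold change was -1.26 ± 0.25 (edgeR adjusted p = 0.00616), -0.54 against the other DMSO times (adjusted p = 0.284), and lost its call without PA 12 h B (adjusted p = 0.0744). The entry chr11_23876 had 1102 and 928 CPM in PA 12 h and 2108 and 3053 CPM in DMSO 12 h. All 6 other DMSO libraries held between 891 and 1141 CPM, so PA 12 h lay in their midst. Its fold change of -1.35 ± 0.24 (adjusted p = 0.0024) turned to 0.03 against the other DMSO times (adjusted p = 0.944), and without PA 12 h B its adjusted p was 0.0505.

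The other 5 falls did not pass against the other DMSO times either, and 1 of them, that of chr17_33942, changed direction. For chr17_33942 the fold change was -2.46 ± 0.55 (adjusted p = 0.0107) and turned to 0.63 against the other DMSO times (adjusted p = 0.578); it was lost without DMSO 12 h B (0.11) or PA 12 h A (0.0993). For chr5_13448, with 46.4 and 44.6 CPM in PA 12 h and 84.7 and 117 CPM in DMSO 12 h, it was -1.14 ± 0.26 (adjusted p = 0.0107) and -0.37 against the other times (adjusted p = 0.486). For chr4_10821, with 199.7 and 248 CPM in PA 12 h and 479 and 443 CPM in DMSO 12 h, it was -1.04 ± 0.26 (adjusted p = 0.018) and -0.66 against the other times (adjusted p = 0.207). Unlike chr5_13448, chr4_10821 had DMSO 12 h levels within the range of DMSO 0 h and 3 h. Both calls ended without either PA 12 h library (adjusted p from 0.0638 to 0.129), and that of chr5_13448 also without DMSO 12 h B (0.088).

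The remaining falls were the least stable. The entry chrX_39694 had 91.8 and 95.2 CPM in PA 12 h and 313 and 122 CPM in DMSO 12 h. The high value of DMSO 12 h A stood alone among the DMSO libraries. Its fold change of -1.23 ± 0.37 (adjusted p = 0.0435) was -0.68 against the other DMSO times (adjusted p = 0.357) and -0.37 without DMSO 12 h A (adjusted p = 0.517), and 5 of the 14 fits that left out a library kept the call. The entry chr9_20919 had counts of 10 and 8 in PA 12 h and 20 and 14 in DMSO 12 h, with a fold change of -1.55 ± 0.47 (adjusted p = 0.046). It was -0.95 against the other DMSO times (adjusted p = 0.325), and the entry passed in 0 of the 14 fits that left out a library.

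The rises at 12 h besides chr8_19924 were those of chr22_38634 and chr13_28163. The entry chr22_38634 had 489 and 479 CPM in PA 12 h and 307 and 167 CPM in DMSO 12 h, whereas the other 6 DMSO libraries held between 458 and 672 CPM. PA 12 h lay in the range of those 6, and DMSO 12 h below it. The fold change was 1.02 ± 0.23 (adjusted p = 0.0107) and turned to -0.17 against the other DMSO times (adjusted p = 0.704), and it lost its call without DMSO 12 h B (0.0751). For chr13_28163, PA 12 h had 65.6 and 79.3 CPM beside 33.6 and 42.7 CPM in DMSO 12 h. Its fold change of 0.94 ± 0.27 (adjusted p = 0.0378) turned to -0.31 against the other times (adjusted p = 0.557), and leaving out any of the 12 h libraries ended the call, with adjusted p-values from 0.052 to 0.186.

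**Figure D4:**
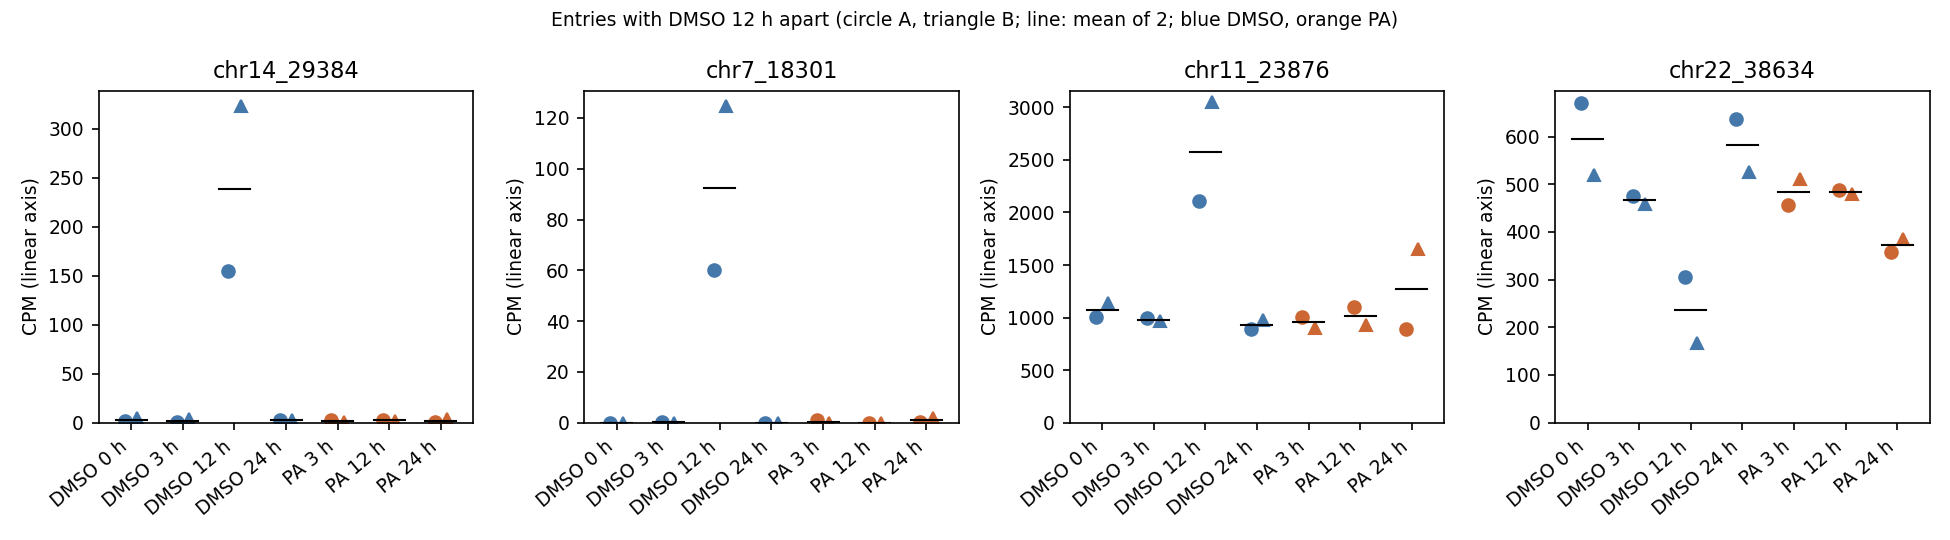
CPM on a linear axis in each library by group for chr14_29384, chr7_18301, chr11_23876 and chr22_38634; circles are A, triangles are B, and a line marks the mean of the 2 libraries. In the first 3 panels the DMSO 12 h libraries are the highest and in the last the lowest, with the PA 12 h libraries at the level of the other groups.

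A pair of entries was present almost only in DMSO 12 h. The entry chr14_29384 had counts of 272 and 355 in DMSO 12 h A and B and at most 7 in each of the 12 other libraries, which is 154.7 and 323 CPM against at most 4.93 CPM. The entry chr7_18301 had counts of 106 and 137 there and at most 2 elsewhere, with 0 in both libraries of DMSO 0 h, DMSO 24 h and PA 12 h. Both DMSO 12 h libraries held the reads, so neither A nor B alone made the pattern. With a floor of 3 counts over a group, DMSO 12 h was at least 138-fold higher than PA 12 h for chr7_18301, at least 146-fold higher than DMSO 24 h and at least 87.3-fold higher than DMSO 0 h, where the floor covers counting error only. These entries met the count rule only through DMSO 12 h, so they carry no test here. They had the highest correlation of any pair of the 111 fitted unnamed entries, 0.954 over 14 libraries. Over the 12 libraries without DMSO 12 h it was 0.0131. A further 2 entries kept by the libraries of 1 group, both too low to be fitted, were chr11_25302, with counts of 11 and 12 in PA 24 h and at most 4 elsewhere, and chr7_17400, with 11 and 10 in PA 3 h and at most 8 elsewhere.

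Several unnamed entries changed with time in DMSO alone. DMSO at 3, 12 and 24 h was set against DMSO 0 h in a single test for each entry. Of 96 tested entries that reached the rule without the DMSO libraries, 16 passed (16.7%), beside 13.1% of all 810 entries. An unadjusted p under 0.05 was found for 30 of the 96 and for 241 of all 810. The entry chr11_23876 was higher in DMSO 12 h than in DMSO 0 h, with a log2 fold change of 1.26 ± 0.24, and had -0.13 ± 0.24 at 3 h and -0.20 ± 0.24 at 24 h (adjusted p of the test over times = 0.00173). The log2 fold change of DMSO 12 h over 0 h was -1.89 ± 0.27 for chr13_28163 (adjusted p of the test over times = 0.000415), -1.32 ± 0.23 for chr22_38634 (0.00443), and -1.07 ± 0.18 for chr19_36629 (0.00487). For chr17_33942 it was 2.42 ± 0.57, with -1.97 ± 0.68 at 24 h (0.00152).

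At 24 h, DMSO was below 0 h by a log2 fold change of -2.57 ± 0.36 for chr1_2271 (adjusted p of the test over times = 0.00246), -2.44 ± 0.43 for chr16_32004 (0.00383), -1.70 ± 0.27 for chr20_37468 (0.00296) and -1.62 ± 0.26 for chr4_10821 (0.00383). The levels of chr20_37468 were 70.6 and 85.4 CPM in DMSO 0 h, 48.1 and 43.3 CPM at 3 h, 67.7 and 79.1 CPM at 12 h, and 24.6 and 23.4 CPM at 24 h. DMSO 24 h was thus its lowest group, below every other library. It moved with chr20_36956, which passed too, with a Pearson correlation of 0.919 over 14 libraries and 0.902 over the 12 without DMSO 12 h. With the DMSO 12 h term left out, 6 entries passed in place of 16, and without DMSO 24 h B 10 passed.

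The PA effect differed between 24 h and 3 h for 4 of 91 tested entries (4.4%), all larger at 24 h, beside 1.23% of all entries. An unadjusted p under 0.05 was found for 17 of the 91 and for 101 of all 810 entries. Besides chr8_19924 and chr13_28163, the 4 that passed were chr17_33942, with a difference of 4.24 ± 0.89 on the log2 scale (edgeR adjusted p = 0.0249), and chr1_2271, with 2.13 ± 0.48 (edgeR adjusted p = 0.0335). In chr17_33942 the PA 3 h libraries had 7.10 and 6.77 CPM and DMSO 3 h had 23.7 and 10.5 CPM, so PA was below DMSO at 3 h and above it at 24 h. In chr1_2271 the PA 3 h libraries (39.3 and 35.2 CPM) were close to DMSO 3 h (31.3 and 22.2 CPM). Both of the latter calls were lost in 7 of the 14 fits that left out a library, those that lacked DMSO 3 h A or 1 of the PA 3 h, DMSO 24 h or PA 24 h libraries.

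As a mean over 3, 12 and 24 h, no unnamed entry passed (0 of 59 tested that reached the rule in the DMSO 0 h libraries, beside 0% of the 808 entries in that fit). With edgeR, 12 of the 59 and 116 of the 808 had an unadjusted p under 0.05. The mean log2 fold change of chr8_19924 was 4.19 ± 1.11 (SE), with an edgeR adjusted p of 0.175. This fit held 1 PA effect for all times, so differences of the PA effect between times counted as spread. For chr8_19924, whose PA effect was larger at 24 h than at 3 h, the missed threshold therefore does not mean a small mean effect. DESeq2 called 3 of the entries, chr8_19924 (4.13, adjusted p = 0.000302), chr13_28163 and chr19_35739.

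Low counts in the table were more often even than odd. Among values from 6 to 20 in the unnamed entries that met the rule, 66.4% of 592 were even, and among values from 61 to 200, 52.5% of 179. In all unnamed entries a count of 1 was found 623 times and a count of 2 was found 1179 times, and in named miRNAs the numbers were 2022 and 3530. The 2 entries chr14_29366 and chr22_38516 had even counts in all 14 libraries. The cause was not tested, and where reads were counted in pairs the counting error of a low value would be larger than its count implies.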

How the data were processed

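Small RNA was sequenced from 14 libraries of PANC-1 cells, 2 in each of 7 groups set from the labels. The values are the authors' deposited read counts (whole numbers, not normalized); 0 of its value columns lacked a sample. The authors' TPM table was not used here. The tools listed per the submitters' processing notes were bcl2fastq, Bowtie and edgeR, with build GRCh38; the sources used here give no versions, roles, prediction program or rules on strand and multi-mapping reads.

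The quasi-likelihood F test of edgeR 4.0.16 (R 4.3.3, limma 3.58.1) was run with TMM scaling and robust glmQLFit. filterByExpr (count 10, total 15) kept 810 entries: 682 named miRNAs and 128 unnamed entries, 111 of them among the 117 described; the other 6 were too low. All 14 libraries entered 1 fit by group, with a common biological coefficient of variation of 0.203. The mean PA effect was fitted on the 12 libraries of 3, 12 and 24 h with time as a factor (808 entries). Benjamini-Hochberg adjustment ran over all entries of each fit. Log2 values for correlations used a prior count of 2. The fit was tested on simulated data. The members and lists were chosen with earlier results of these data known.

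Entries were named when they were among the 10 most abundant, or passed a comparison (the 10 largest in a direction, or the 10 smallest adjusted p over DMSO times), or were closest to chr8_19924, the closest pair or next to the count threshold. Named after their values were seen were chr1_1429, chr11_25302, chr12_27013, chr14_29384, chr18_34862, chr19_35739, chr20_36956, chr20_37468 as a pair, chr22_38516, chr7_17400, chr7_18301, chr14_29366 and the sets of identical counts.

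Alternatives were total counts without TMM, TMM from named miRNAs, DESeq2 1.42.0, no filter, the count rule as filter, identical sets collapsed, the letter as a block, only the groups compared, other DMSO controls, other count rules and each library left out. The letters A and B did not pair the libraries: deviations of same-letter libraries correlated between -0.165 and 0.114 over 21 pairs of groups, 1 above 0.1.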

Additional observations from a re-analysis of the deposited data

Results flagged for a closer look

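The PA effect differed between 24 h and 3 h, by the test of that difference, in 4 unnamed entries, all with the larger log2 fold change at 24 h. The differences in log2 fold change were 5.97 for chr8_19924, 4.24 for chr17_33942, 2.83 for chr13_28163 and 2.13 for chr1_2271. The groups had 2 libraries each, too few to look for a single deviating library within a group.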

How the results depend on the processing

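The number of unnamed entries was 117 by the rule, 204 with a count of 5, 75 with a count of 20, 101 with at least 3 libraries and 123 with identical sets counted separately. The numbers that passed were 10 at 12 h, 5 with only the groups compared and 3 against the other DMSO times; 1 at 3 h and 0 with only the groups compared; 4 for 24 h minus 3 h, 9 with no filter and 8 with DESeq2; 0 for the mean effect, 2 with no filter and 3 with DESeq2; and 16 over DMSO times, 6 without the DMSO 12 h term, a choice made after seeing the data, as was the mean effect without 12 h. Leaving out each library gave 3 to 14 at 12 h (4 and 3 without A or B of PA 12 h), 6 to 18 at 24 h in place of 13 (6 without DMSO 24 h A, 7 without DMSO 24 h B, 8 without PA 24 h B), 1 to 1 at 3 h, 2 to 5 for 24 h minus 3 h, 0 to 1 for the mean effect and 10 to 19 over DMSO times. A lone library left in a group was assumed to vary like the other groups. Against the other DMSO times the log2 fold change reversed at 12 h for chr11_23876 (0.031), chr13_28163 (-0.31), chr17_33942 (0.63) and chr22_38634 (-0.17), and at 24 h for chr16_32004 (-0.086). With the letter as a replicate block, 8 passed at 12 h, 13 at 24 h, 1 at 3 h, 3 for 24 h minus 3 h, 0 for the mean effect and 15 over DMSO times, and 26 of 29 named results kept their side of the threshold; those that did not were chr9_20919 and chrX_39694 at 12 h and chr1_2271 for 24 h minus 3 h. With only the groups compared, chr13_28163, chr22_38634, chr5_13448, chr9_20919 and chrX_39694 at 12 h and chr19_36629 at 24 h were no longer called. Over all alternatives, 557 single results kept direction and side, 94 lost and 1 gained their call, and 5 reversed. Total counts limit the low entries: at counts near 10 sampling alone makes folds uncertain. The causes were not tested.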

Other observations

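The entry chr1_1429 was found almost only with PA. It met the count rule only through PA libraries, so the choice of entries favours this pattern. It had a count of 0 in 7 of the 8 DMSO libraries and 4 in DMSO 24 h A. With PA its counts in libraries A and B were 0 and 13 (3 h), 4 and 16 (12 h), 18 and 0 (24 h). A count of 0 and a count above 10 thus stood side by side within PA 3 h and within PA 24 h, and no PA comparison called it.

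Besides the entries that passed at 24 h, 7 of the 15 unnamed entries with both PA 24 h libraries above all 8 DMSO libraries did not pass or were not read for a call: chr13_27554, chr17_33045, chr2_4552, chr2_6966, chr22_38392, chr6_16413 and chrX_38863. No unnamed entry (0 of 111) had all 6 PA libraries below all 8 DMSO libraries, beside 1 of all 810 entries.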
